A study of Homo sapiens with 6 samples.

Results

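The enzymes that write, keep and remove DNA methylation were followed in 22Rv1 cells, a human prostate carcinoma epithelial line, over 6 weeks of repeated DNA damage. The 9 genes were taken by symbol from the table of gene counts and are DNMT1, UHRF1, DNMT3A, DNMT3B, TET1, TET2, TET3, TDG and MBD4. All 9 were present among its 29804 symbols, and all 9 were among the 14672 genes that passed the filter on low counts and were tested. RNA was sequenced in 3 groups of 2 libraries, which are labelled as biological replicates. WT cells were untreated and collected at week 0. AM (age matched) cells grew for 6 weeks without the drug. 6WP cells were given phleomycin, a radiomimetic drug that breaks DNA, at 1 µg/ml on every week day over the same 6 weeks. The genotype label is WT for all 6 libraries, and all came from the same line grown in the same serum-containing medium, so the model is a single cell line. AM and WT cells differ in time in culture, 6WP and AM cells differ in exposure to phleomycin, and 6WP and WT cells differ in both. The study's methods give a wash and fresh medium after each dose, and do not state the same handling for AM cells.

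DNA methylation in mammals sits mostly on the cytosine of CG pairs (CpG) and has to be copied onto the new strand each time DNA is replicated. UHRF1 binds the sites that are methylated on 1 strand only and brings in DNMT1, the maintenance methyltransferase, while DNMT3A and DNMT3B place methyl groups on unmethylated DNA. The TET enzymes oxidize methylated cytosine, TDG cuts out the oxidized bases and MBD4 cuts out the mismatched thymine left when a methylated cytosine is deaminated. Prostate cancers are known for methylated promoters at genes such as GSTP1.

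Library totals lay between 21222201 and 35311945 counts, and 3 counts, the smallest amount taken as detectable, corresponded to 0.0883 to 0.138 CPM. CPM here means counts scaled to the library total after TMM normalization, which corrects library totals for differences in composition. These floors cover counting error only. The smallest member count was 109 counts, for TET1. The 6WP libraries stood further apart from each other than the control libraries did. Over all tested genes, the SD of log2 CPM between the 2 libraries of a group had a median of 0.0854 for WT, 0.0911 for AM and 0.196 for 6WP. Over the 9 members it was 0.0921, 0.0418 and 0.263. The 10 markers of prostate epithelial cells were detected in every library, with a summed level of 1934 to 3455 CPM. Of 10 markers of immune, endothelial and fibroblast cells, 3 (PTPRC, CD3E and CDH5) were at 0 in all libraries, and the summed level of the 10 was 5.18 to 6.92 CPM.

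Among the 9 genes, 4 differed between 6WP and AM cells (21.3% of all tested genes did), 3 between AM and WT cells (17.7% of all) and 0 between 6WP and WT cells (3.00% of all). These are calls of edgeR's quasi-likelihood test at a Benjamini-Hochberg adjusted p under 0.05 over all tested genes. UHRF1 and DNMT1 were lower in 6WP than in AM cells, whereas DNMT3A and TET2 were higher. Against WT cells, AM cells had more UHRF1 and less DNMT3A and TET2 RNA. The AM libraries serve in both comparisons, so the opposite signs are not independent of each other. The promoters of these 4 genes are shown first because they are the members whose RNA level differed.

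The promoter windows were taken from RefSeq (GRCh38.p14), where 8 of the 9 genes had a window at the start of the GENCODE canonical transcript and DNMT3B had none. Each window holds 250 bases before and 50 bases after the transcription start. The stretch before the start is printed here on the strand of the gene, from 5′ to 3′, and for DNMT1 the stretch runs 6 bases past the start. No capitals appear for DNMT3A and TET2, and in DNMT1 and UHRF1 capitals mark a match to the letters bound by E2F factors, which switch on genes needed for DNA replication. DNMT1 lies at chr19:10194948-10195203 on the minus strand, UHRF1 at chr19:4909251-4909500 on the plus strand, DNMT3A at chr2:25341926-25342175 on the minus strand and TET2 at chr4:105146626-105146875 on the plus strand.
DNMT1: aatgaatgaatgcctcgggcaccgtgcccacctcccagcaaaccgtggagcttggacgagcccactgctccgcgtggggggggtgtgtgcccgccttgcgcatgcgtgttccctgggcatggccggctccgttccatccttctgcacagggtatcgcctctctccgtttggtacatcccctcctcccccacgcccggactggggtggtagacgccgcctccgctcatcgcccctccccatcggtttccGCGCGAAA
UHRF1: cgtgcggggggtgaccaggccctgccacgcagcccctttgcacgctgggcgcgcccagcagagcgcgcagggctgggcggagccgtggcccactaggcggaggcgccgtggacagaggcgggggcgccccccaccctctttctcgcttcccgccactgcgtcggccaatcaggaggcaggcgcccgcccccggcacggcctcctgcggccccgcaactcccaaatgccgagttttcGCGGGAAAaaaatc
DNMT3A: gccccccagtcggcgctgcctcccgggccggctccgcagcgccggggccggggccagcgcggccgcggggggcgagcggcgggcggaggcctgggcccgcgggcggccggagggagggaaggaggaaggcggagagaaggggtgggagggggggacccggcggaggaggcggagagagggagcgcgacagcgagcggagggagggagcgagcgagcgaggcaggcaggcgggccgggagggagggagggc
TET2: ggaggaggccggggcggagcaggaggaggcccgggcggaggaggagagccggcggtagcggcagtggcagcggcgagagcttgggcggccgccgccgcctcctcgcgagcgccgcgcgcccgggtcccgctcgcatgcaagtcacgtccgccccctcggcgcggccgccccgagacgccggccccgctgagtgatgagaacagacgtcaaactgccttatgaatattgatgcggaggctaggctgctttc

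The letters searched were TTTCGCGC, TTTGGCGC, TTTCCCGC and TTTGCCGC on both strands. A match was found in the windows of DNMT1 and UHRF1 and in none of the other 6 member windows, against 3.31% of all 35116 windows. The match of DNMT1 read TTTCGCGC on the opposite strand and spanned positions -2 to 6 from the start, counted without a position 0. That of UHRF1 read TTTCCCGC on the opposite strand at positions -14 to -7. GGGCGG, the GC box, was present 5 times for TET2, 3 times each for DNMT3A and TET3 and 2 times each for UHRF1 and MBD4. It was absent for DNMT1, TET1 and TDG, and occurred in 45.0% of all windows. CCAAT was found for UHRF1, TDG and MBD4, and in 34.6% of all windows. The windows of 7 of the 8 genes held more CpG pairs than the median window, and that of TET1 held fewer. DNMT3A had 46 CpG, TET3 45, UHRF1 36, TET2 35, DNMT1 30, MBD4 29, TDG 22 and TET1 10, where the median over all windows was 14 and the quartiles were 4 and 28. These matches describe letters in the windows and were not measured as binding sites.

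**Figure D1:**
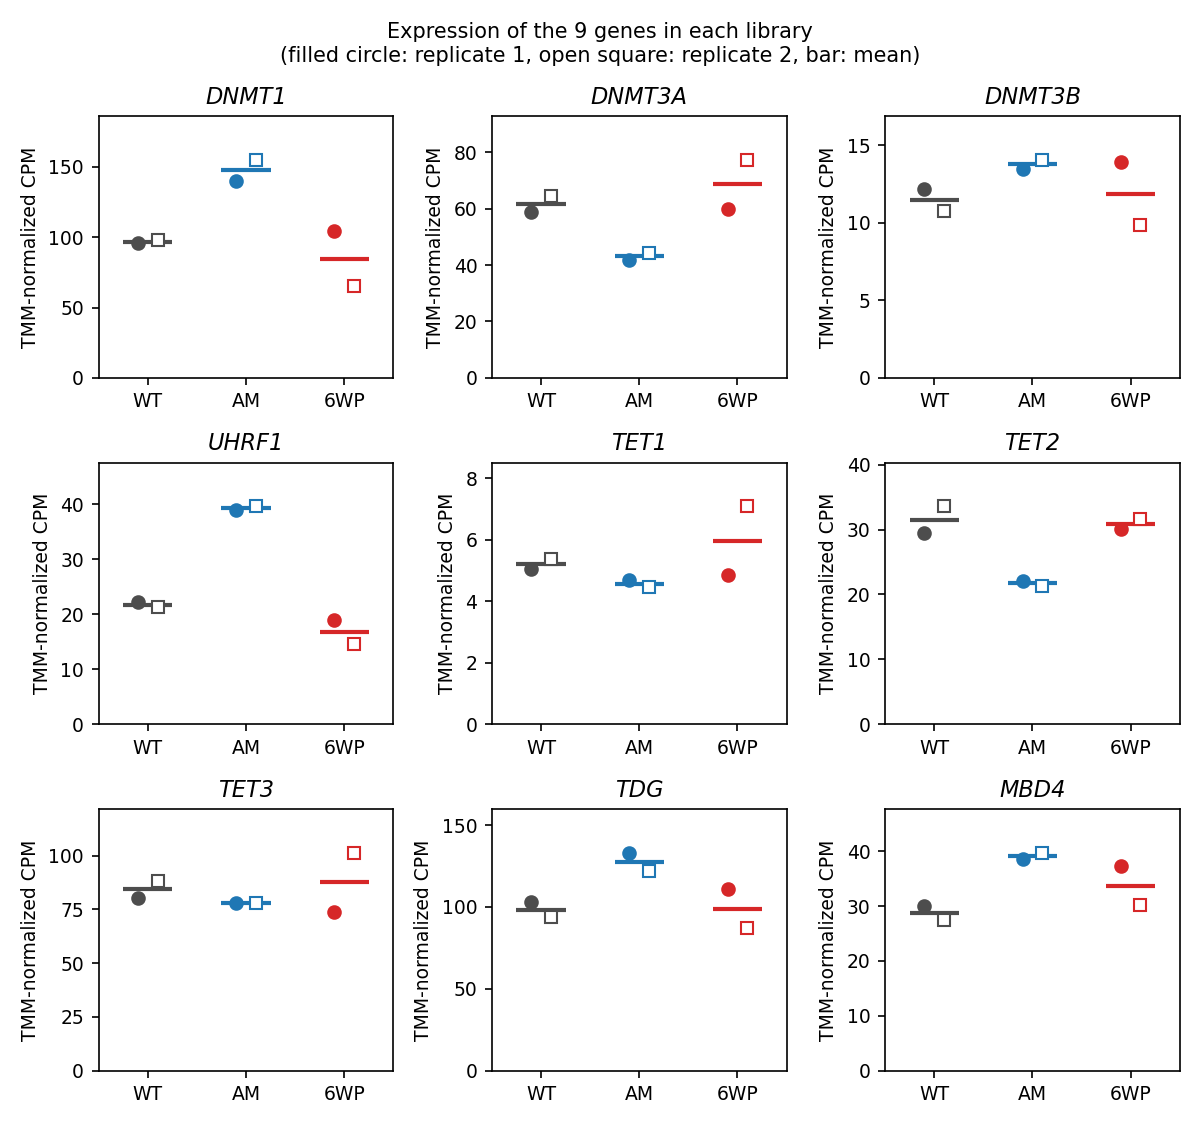
TMM-normalized CPM (vertical axes, from 0) of each of the 9 genes in the WT, AM and 6WP groups, with a filled circle for replicate 1, an open square for replicate 2 and a bar for the mean. Both AM libraries lie above all others for DNMT1, UHRF1, TDG and MBD4 and below all others for DNMT3A, TET1 and TET2. How often such an order occurs among all tested genes was not counted. The 6WP libraries are the furthest apart for DNMT1 (104 and 65.6 CPM).

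Maintenance methylation rests on DNMT1 and UHRF1. DNMT1, on chromosome 19 of GRCh38 from 10133342 to 10231286, was measured at 95.5 and 98.2 CPM in the WT libraries, 140 and 155 CPM in the AM libraries, and 104 and 65.6 CPM in 6WP replicates 1 and 2. The AM libraries were above all others, and the 6WP libraries lay on either side of the WT libraries. Means were 96.9 ± 1.86 CPM for WT, 148 ± 10.6 CPM for AM and 84.8 ± 27.2 CPM for 6WP (SD, n = 2 each). DNMT1 fell by 0.80 on the log2 scale from AM to 6WP cells (standard error 0.20, adjusted p = 0.0259), so that the level was 1.74-fold higher in AM cells. Between AM and WT cells the log2 difference was 0.61 (95% confidence interval 0.16 to 1.06) with an adjusted p of 0.0675, which misses the threshold. Between 6WP and WT cells it was -0.19 (-0.64 to 0.26, adjusted p = 0.602).

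UHRF1, on chromosome 19 from 4903080 to 4962154, showed the largest differences of the 9 genes. Its level was 22.2 and 21.3 CPM in WT, 39.0 and 39.6 CPM in AM and 18.9 and 14.6 CPM in 6WP libraries. The 3 groups did not overlap. UHRF1 rose from 21.8 ± 0.68 CPM in WT to 39.3 ± 0.44 CPM in AM cells, which is 1.81-fold or 0.85 on the log2 scale (standard error 0.15, adjusted p = 0.0107). It was 16.8 ± 3.06 CPM in 6WP cells, a fall from AM cells by 1.23 on the log2 scale (standard error 0.15, adjusted p = 0.00344), with the AM level 2.35-fold higher. By p-value UHRF1 ranked 151 of all tested genes between 6WP and AM cells and 592 between AM and WT cells. Between 6WP and WT cells its log2 difference of -0.38 (95% interval -0.73 to -0.03) had an unadjusted p of 0.0369 and an adjusted p of 0.196. UHRF2, the paralogue of UHRF1, did not show the same order of groups, with 34.0 ± 0.21 CPM in WT cells, 30.3 ± 0.68 CPM in AM cells and 26.7 ± 2.87 CPM in 6WP cells, and passed the test in no comparison.

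DNMT3A and DNMT3B methylate DNA de novo, and only DNMT3A passed the test. DNMT3A, on chromosome 2 from 25227855 to 25342590, had 58.7 and 64.5 CPM in WT, 41.9 and 44.4 CPM in AM and 60.0 and 77.3 CPM in 6WP libraries. Both AM libraries were below the other 4, and the WT and 6WP ranges overlapped. DNMT3A fell by 0.51 on the log2 scale from WT to AM cells (standard error 0.14, adjusted p = 0.0440). It was higher by 0.67 in 6WP than in AM cells (standard error 0.14, adjusted p = 0.0173), which is 1.59-fold. The difference between 6WP and WT cells was 0.16 (95% interval -0.17 to 0.48, adjusted p = 0.555). DNMT3B, on chromosome 20 from 32762385 to 32809359, was measured at 12.1 and 10.7 CPM in WT, 13.5 and 14.0 CPM in AM and 13.9 and 9.87 CPM in 6WP libraries. The 6WP libraries lay far apart, 1 below both WT libraries and the other between the AM libraries. Its log2 differences were 0.27 between AM and WT (-0.18 to 0.71), -0.21 between 6WP and AM (-0.65 to 0.22) and 0.05 between 6WP and WT (-0.39 to 0.50), with adjusted p between 0.352 and 0.905. DNMT3L, the cofactor of DNMT3A and DNMT3B without catalytic activity of its own, had 0 counts in all 6 libraries, which allows a level of up to the floors given above.

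Of the 3 TET enzymes, TET2 alone passed the test. TET2, on chromosome 4 from 105145875 to 105279816, had 29.5 and 33.6 CPM in WT, 22.1 and 21.3 CPM in AM and 30.0 and 31.7 CPM in 6WP libraries. The AM libraries were below the others, and the 6WP values lay within the WT range. TET2 fell by 0.54 on the log2 scale from WT to AM cells (standard error 0.13, adjusted p = 0.0257) and was higher by 0.51 in 6WP than in AM cells (standard error 0.13, adjusted p = 0.0259), or 1.42-fold. Between 6WP and WT cells the difference was -0.03 (95% interval -0.32 to 0.26, adjusted p = 0.913).

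TET3, on chromosome 2 from 73984910 to 74108176, had 80.5 and 88.2 CPM in WT, 78.1 and 78.0 CPM in AM and 73.8 and 101 CPM in 6WP libraries. TET1, on chromosome 10 from 68560337 to 68694487, was low throughout, with 5.04 and 5.37 CPM in WT, 4.69 and 4.45 CPM in AM and 4.85 and 7.08 CPM in 6WP libraries. The AM libraries were the lowest for TET1. For both genes 6WP replicate 2 was the highest library and 6WP replicate 1 lay near or below the controls. Neither passed the test, with log2 differences between 6WP and AM of 0.39 for TET1 (-0.14 to 0.91) and 0.17 for TET3 (-0.19 to 0.52). Intervals for the other comparisons ran from -0.73 to 0.73 for TET1 and from -0.47 to 0.41 for TET3.

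The glycosylases TDG and MBD4 start base excision repair. TDG, on chromosome 12 from 103965822 to 103988874, had 103 and 93.9 CPM in WT, 133 and 122 CPM in AM and 111 and 87.2 CPM in 6WP libraries. MBD4, on chromosome 3 from 129430947 to 129440179, had 30.0 and 27.5 CPM in WT, 38.5 and 39.7 CPM in AM and 37.3 and 30.2 CPM in 6WP libraries. For both genes the AM libraries were the highest and the 6WP ranges reached above the WT ranges. Between AM and WT cells the log2 differences were 0.37 for TDG (95% interval 0.05 to 0.69, adjusted p = 0.0962) and 0.44 for MBD4 (0.13 to 0.76, adjusted p = 0.0604), which miss the threshold although the intervals lie above 0. Between 6WP and AM cells they were -0.36 for TDG (-0.68 to -0.05, adjusted p = 0.0951) and -0.22 for MBD4 (-0.53 to 0.10). Between 6WP and WT cells they were 0.01 for TDG (-0.31 to 0.33) and 0.23 for MBD4 (-0.09 to 0.55). The ratio of TDG to MBD4 counts was 3.42 and 3.41 in WT, 3.45 and 3.06 in AM and 2.97 and 2.89 in 6WP libraries.

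**Figure D2:**
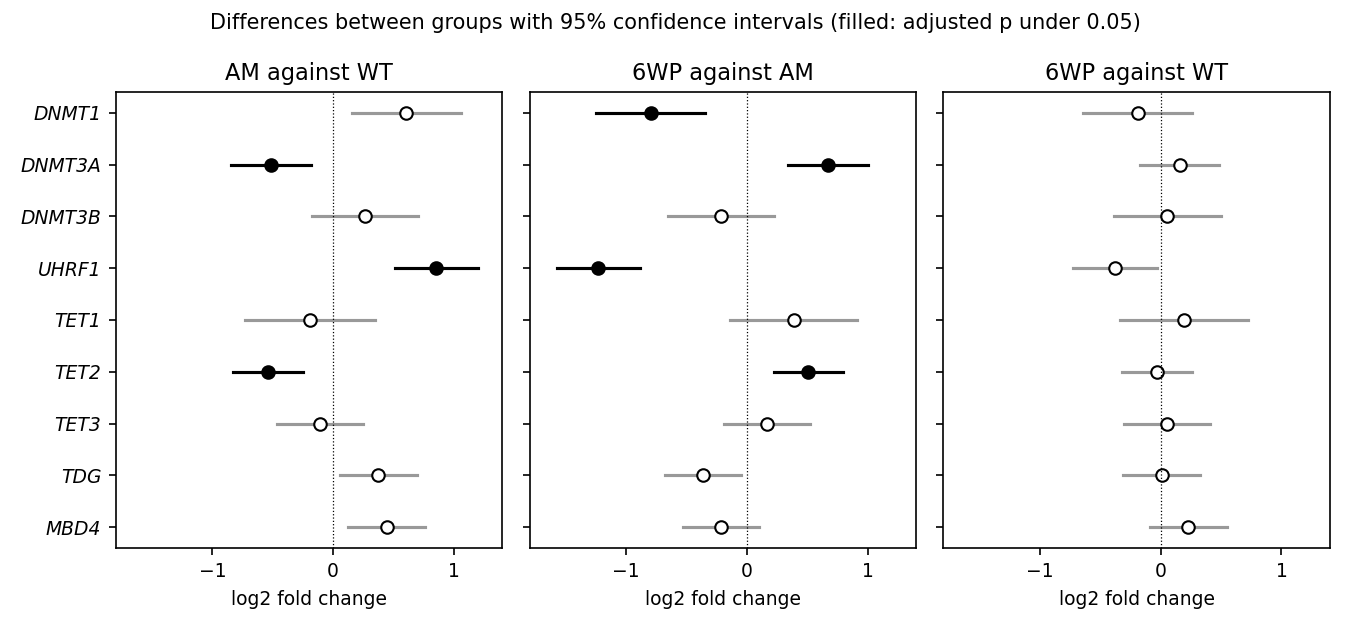
Log2 fold change (horizontal axes) of each gene in the 3 comparisons, with lines for the 95% confidence interval and filled points for an adjusted p under 0.05. UHRF1, DNMT3A and TET2 are filled between AM and WT, DNMT1 joins them between 6WP and AM, and no point is filled between 6WP and WT.

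Of the 4 members that passed between 6WP and AM cells, 2 were higher (11.7% of all genes) and 2 were lower (9.68%). Of the 3 between AM and WT cells, 1 was higher (7.74%) and 2 were lower (9.93%). Between 6WP and WT cells, 1.63% of all genes were higher and 1.37% lower. At that background, a count of 0 among 9 genes is not a result about these genes. In that comparison 1 member, UHRF1, had an unadjusted p under 0.05, and DESeq2 and edgeR's likelihood ratio test called 0. DESeq2 and the likelihood ratio test each called 4 members between 6WP and AM cells. Between AM and WT cells each called 5, adding DNMT1 and MBD4. Exact permutation of 2 against 2 libraries cannot give a p below 0.333, so all calls rest on the model fitted across genes.

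The calls depended on single libraries more than the differences did. Between AM and WT cells, UHRF1, DNMT3A and TET2 each lost the call when any of the WT or AM libraries was left out. For UHRF1 the log2 fold change was then 0.89 and 0.84 without WT replicates 1 and 2 and 0.86 and 0.83 without AM replicates 1 and 2, with adjusted p of 0.0871 to 0.119. For DNMT3A it was -0.57, -0.42, -0.48 and -0.57 in the same order (adjusted p 0.171 to 0.290), and for TET2 -0.62, -0.42, -0.57 and -0.53 (0.119 to 0.237). No sign changed in these fits. Between 6WP and AM cells, DNMT1, DNMT3A and TET2 lost the call without any of the same 4 libraries. DNMT1 was then at -0.80, -0.82, -0.87 and -0.72 (adjusted p 0.0612 to 0.165), DNMT3A at 0.66, 0.65, 0.63 and 0.71 (0.0529 to 0.139) and TET2 at 0.50, 0.49, 0.53 and 0.49 (0.0682 to 0.176). UHRF1 lost it only without AM replicate 2 (-1.22, adjusted p = 0.0557).

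The 6WP libraries differed from each other in a way that crossed the family. From replicate 1 to replicate 2, log2 CPM differed by -0.67 for DNMT1, -0.49 for DNMT3B, -0.37 for UHRF1, -0.35 for TDG and -0.30 for MBD4, and by 0.54 for TET1, 0.46 for TET3, 0.36 for DNMT3A and 0.08 for TET2. The largest of these gaps within the WT or AM groups was 0.19, for TET2 in WT. Log2 differences from WT cells were also fitted with a single 6WP library. With 6WP replicate 2 alone they were -0.58 for DNMT1, -0.59 for UHRF1, 0.31 for DNMT3A and 0.05 for MBD4. With 6WP replicate 1 alone they were 0.08 for DNMT1, -0.23 for UHRF1, -0.06 for DNMT3A and 0.35 for MBD4. In these fits the lone library is assumed to vary like the other groups.

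The balance of the methyltransferases followed the same order of groups. Levels were divided by the length of the canonical transcript to compare genes, and DNMT1 then made up 66.7% and 66.6% of the summed DNMT1, DNMT3A and DNMT3B level in WT libraries, 77.8% and 78.7% in AM libraries, and 67.3% and 54.3% in 6WP libraries. The share of DNMT3A was 23.0% and 24.5% in WT, 13.0% and 12.6% in AM and 21.7% and 35.8% in 6WP libraries. The AM libraries thus had the highest DNMT1 share and the lowest DNMT3A share. DNMT3B kept between 8.67% and 10.9% in all 6 libraries. The rank of DNMT1 over DNMT3A changed with the length used in 6WP replicate 2. Per length of all exons, DNMT3A made up 49.6% and DNMT1 37.7% in 6WP replicate 2, and DNMT1 led in the other 5 with 50.5% to 65.7%. The ratio of DNMT3A to DNMT1 counts, which needs no length, was 0.614 and 0.657 in WT, 0.299 and 0.286 in AM and 0.577 and 1.18 in 6WP libraries.

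**Figure D3:**
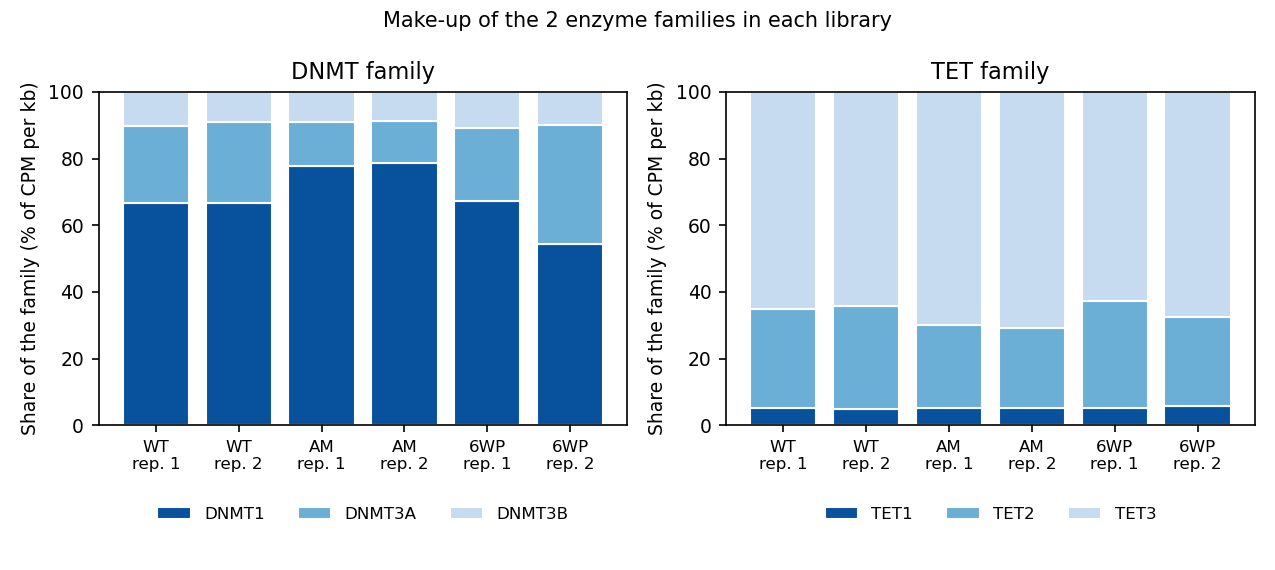
Share (vertical axes, percent of the summed CPM per kb of canonical transcript) of each member in the DNMT family and in the TET family, with 1 stacked bar for each library. DNMT1 makes up 77.8% and 78.7% of its family in the AM bars and 54.3% in 6WP replicate 2, and TET3 is the largest part of the TET family in all 6 bars (62.7% to 70.7%).

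Within the TET family, TET3 accounted for 62.7% to 70.7% of the level per length, TET2 for 24.3% to 32.1% and TET1 for 4.92% to 5.92%. TET2 was lowest in the AM libraries, at 24.8% and 24.3%. Over all 9 genes, the level per kb of canonical transcript in WT cells was highest for TDG at 30.9 ± 1.99 CPM per kb (SD, n = 2 for each mean). DNMT1 followed at 18.4 ± 0.35 and MBD4 at 12.0 ± 0.75. TET3 (6.99 ± 0.45) and DNMT3A (6.54 ± 0.44) had overlapping libraries, and UHRF1 stood below them at 5.58 ± 0.17. TET2 (3.29 ± 0.30), DNMT3B (2.64 ± 0.23) and TET1 (0.54 ± 0.02) came last. In AM cells UHRF1, at 10.1 ± 0.11 CPM per kb, stood above TET3 (6.47 ± 0.01) and DNMT3A (4.58 ± 0.18), and DNMT3B (3.17 ± 0.09) stood above TET2 (2.26 ± 0.06). In 6WP cells DNMT3A (7.29 ± 1.30) and TET3 (7.26 ± 1.62) differed by less than their spread, as did DNMT1 (16.1 ± 5.16) and MBD4 (14.1 ± 2.10). The place of DNMT1 depends on the length used. Per kb of all exons, DNMT1 stood at 6.30 ± 0.12 CPM per kb in WT cells, below MBD4 (8.58 ± 0.53) and near TET3 (6.52 ± 0.42), and in the 6WP libraries DNMT1 (6.77 and 4.26) stood below MBD4 (mean 10.1). DNMT3A (4.98 ± 0.89) and TET3 (6.77 ± 1.51) then differed by more than their SDs in 6WP cells.

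Several genes whose proteins work with DNMT1 and UHRF1 at the replication fork were also lower in 6WP than in AM cells. Of 16 partners and regulators of the methyltransferases, 13 were tested, and between 6WP and AM cells 4 fell (LIG1, PCNA, HELLS and CDCA7) and 0 rose, beside 9.68% and 11.7% of all tested genes. PCNA, the sliding clamp that recruits DNMT1 to new DNA, was at 260 ± 20.9 CPM in WT cells, 447 ± 39.5 CPM in AM cells and 175 ± 44.3 CPM in 6WP cells. It rose by 0.78 on the log2 scale from WT to AM cells (adjusted p = 0.0221) and fell by 1.36 from AM to 6WP cells (adjusted p = 0.00397). LIG1, the ligase of replicated DNA and a binding partner of UHRF1, rose by 0.86 (adjusted p = 0.0360) and fell by 1.47 (adjusted p = 0.00651) in the same comparisons. The falls were called in 14 of 15 alternative fits for PCNA (lost without AM replicate 2, -1.26, adjusted p = 0.0585) and in 13 for LIG1 (lost without AM replicates 1 and 2, -1.54 and -1.39, adjusted p = 0.0625 and 0.0678). The rises were lost without any of the WT or AM libraries, at log2 values of 0.68 to 0.92 and adjusted p of up to 0.226. HELLS, a chromatin remodeler that gives the methyltransferases access to DNA, was the only partner called between 6WP and WT cells. It fell by 0.70 on the log2 scale (adjusted p = 0.0493), from 38.0 ± 1.25 to 23.3 ± 3.98 CPM, and was called in 7 of 15 alternative fits, with adjusted p up to 0.424. Without either AM library its adjusted p was 0.129, and without WT replicates 1 and 2 it was 0.424 and 0.274. The medians of the 13 log2 fold changes were -0.18 (6WP against AM), 0.22 (AM against WT) and -0.16 (6WP against WT), beside 0.05, -0.00 and 0.01 over all tested genes. Over the 9 members they were -0.21, 0.27 and 0.05.

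Genes of S phase and proliferation differed in the same comparisons. Of 20 tested, 15 fell and 0 rose between 6WP and AM cells, beside 9.68% and 11.7% of all tested genes. Between AM and WT cells 9 rose and 0 fell, beside 7.74% and 9.93%. Only MCM4 fell and 0 rose between 6WP and WT cells, beside 1.37% and 1.63%. The medians of the 20 log2 fold changes were -1.01 (6WP against AM), 0.62 (AM against WT) and -0.35 (6WP against WT). MCM4 itself, a subunit of the replicative helicase, fell by 0.72 on the log2 scale against WT cells (adjusted p = 0.0464), a call made in 9 of 15 alternative fits with adjusted p up to 0.431. The summed level of the 20 genes was 3695 and 3348 CPM in WT, 5333 and 5568 CPM in AM and 3275 and 1982 CPM in 6WP libraries. It was thus highest in the AM libraries and lowest in 6WP replicate 2, as for DNMT1, UHRF1 and TDG. CDC6, which loads the replicative helicase, was at 91.2 ± 10.1 CPM in WT cells, 197 ± 6.71 CPM in AM cells and 50.5 ± 13.7 CPM in 6WP cells, and fell by 1.96 on the log2 scale from AM to 6WP cells (adjusted p = 0.00202), a call made in 15 of 15 alternative fits. The proliferation marker MKI67 was at 43.9 and 45.4 CPM in WT, 83.8 and 98.0 CPM in AM and 64.6 and 31.6 CPM in 6WP libraries. MKI67 rose from WT to AM cells by 1.03 (adjusted p = 0.0418), a call made in 9 of 15 alternative fits with adjusted p up to 0.242. Between 6WP and AM cells its log2 difference of -0.92 was not called (adjusted p = 0.0514). In bulk RNA, fewer cells in S phase and less RNA per cell cannot be told apart. The part of these genes in the differences of DNMT1 and UHRF1 was not tested.

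Relative to PCNA, the order of groups for DNMT1 was different. The ratio of DNMT1 to PCNA counts was 0.348 and 0.401 in WT, 0.334 and 0.326 in AM and 0.506 and 0.458 in 6WP libraries, so it was highest in 6WP cells. The ratio of DNMT1 to MKI67 counts was instead highest in WT libraries, at 2.18 and 2.16, with 1.67 and 1.58 in AM and 1.61 and 2.07 in 6WP libraries. The ratio of UHRF1 to PCNA counts was 0.0809 and 0.0868 in WT, 0.0930 and 0.0834 in AM and 0.0918 and 0.102 in 6WP libraries, with overlapping ranges for AM and both other groups. The ratio of UHRF1 to MKI67 counts lay between 0.293 and 0.507, with the lowest value in 6WP replicate 1. DNMT3A and TET2 kept close to each other, with a ratio of their counts of 1.99 and 1.92 in WT, 1.90 and 2.08 in AM and 2.00 and 2.44 in 6WP libraries.

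Among genes that supply methyl groups, MAT2A had the largest change. MAT2A makes S-adenosylmethionine, the methyl donor of all DNA methyltransferases, and had 182 and 183 CPM in WT, 140 and 149 CPM in AM and 741 and 443 CPM in 6WP libraries. Both 6WP libraries were above all controls. MAT2A rose by 1.70 on the log2 scale against WT cells (standard error 0.21, adjusted p = 0.00912) and by 2.04 against AM cells (standard error 0.22, adjusted p = 0.00232). The call against AM cells was made in 15 of 15 alternative fits and that against WT cells in 13, lost without WT replicate 1 (1.70, adjusted p = 0.190) or WT replicate 2 (1.70, 0.170). Of the 14 tested genes of the S-adenosylmethionine cycle, MAT2A was the only 1 called between 6WP and WT cells, beside 3.00% of all tested genes. AHCY, which clears the S-adenosylhomocysteine left by each methyl transfer, was at 405 and 410 CPM in WT, 408 and 441 CPM in AM and 455 and 481 CPM in 6WP libraries and was not called. Between 6WP and AM cells 3 of the 14 were called, beside 21.3% of all tested genes. Of these, 2 rose, MAT2A among them, and 1 fell (AHCYL1, called in 9 of 15 alternative fits). Between AM and WT cells 1 rose (GAMT) and 2 fell, AHCYL2 among them, beside 17.7% of all tested genes called. In both comparisons the count of 3 is near the share over all tested genes.

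**Figure D4:**
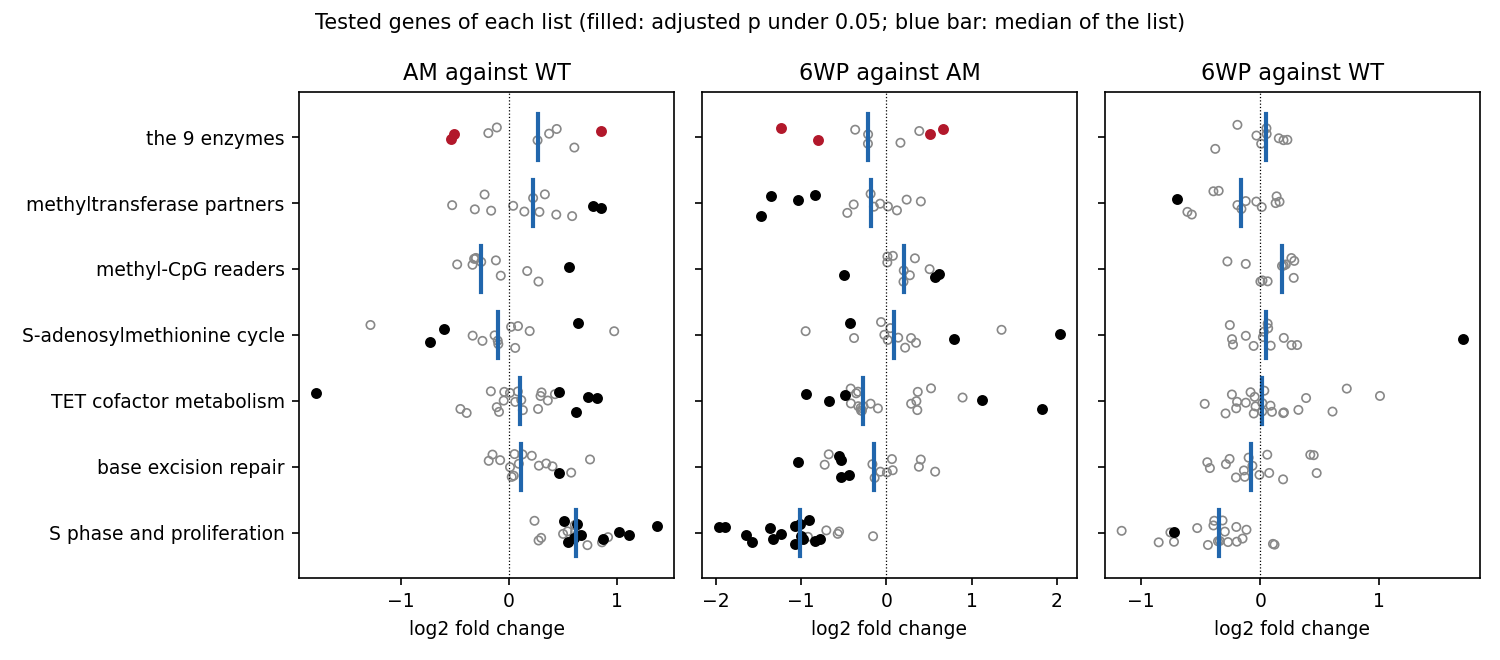
Log2 fold change (horizontal axes, which differ in range between panels) of every tested gene of the 9 enzymes and of 6 related lists in the 3 comparisons, with filled points for an adjusted p under 0.05 and a blue bar for the median of a list. The S phase and proliferation genes lie furthest from 0 as a group (medians 0.62, -1.01 and -0.35), and the point furthest to the right between 6WP and WT is MAT2A at 1.70.

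TET enzymes use 2-oxoglutarate and are regulated by CXXC4, which binds TET2 and lowers its protein level. Among 22 tested genes of this metabolism and regulation, 2 rose and 3 fell between 6WP and AM cells, 4 rose and 1 fell between AM and WT cells, and 0 were called between 6WP and WT cells. The 5 of 22 called in each of the first 2 comparisons stand beside 21.3% and 17.7% of all tested genes, so the count is near the background. The 0 of 22 between 6WP and WT cells stands beside 3.00%, and at that share it is not a result about these genes. CXXC4 fell from 3.93 ± 0.82 CPM in WT to 1.15 ± 0.26 CPM in AM cells, by 1.79 on the log2 scale (adjusted p = 0.00935), and was higher by 1.82 in 6WP than in AM cells (adjusted p = 0.00727), at 4.03 ± 0.63 CPM. These calls were made in 11 and 13 of 15 alternative fits, and the AM libraries held only 31 and 33 counts of CXXC4. OGDH, a subunit of the complex that consumes 2-oxoglutarate, was at 197 ± 5.28 CPM in WT cells, 347 ± 11.0 CPM in AM cells and 181 ± 6.75 CPM in 6WP cells, and fell by 0.94 on the log2 scale from AM to 6WP cells (adjusted p = 0.00232). OGDHL, its paralogue, had 7.37 and 9.51 CPM in WT, 7.71 and 7.89 CPM in AM and 12.5 and 21.4 CPM in 6WP libraries, and rose by 1.12 against AM cells (adjusted p = 0.0223, up to 0.142 over the alternatives). Against WT cells its log2 difference was 1.01 (95% interval 0.40 to 1.61, adjusted p = 0.0785).

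Another 16 base excision repair genes, which include further glycosylases as well as later steps, were tested. Between 6WP and AM cells 5 fell and 0 rose, beside 9.68% and 11.7% of all tested genes. Between AM and WT cells 1 rose and 0 fell, beside 7.74% and 9.93%. Between 6WP and WT cells 0 were called, beside 3.00%. From AM to 6WP cells PARP2, which senses DNA breaks, fell by 1.04 on the log2 scale (adjusted p = 0.0176). PARP1 fell by 0.55 (0.0149) and XRCC1, the scaffold of the repair complex, by 0.53 (0.0481). These calls were made in 12, 11 and 7 of 15 alternative fits, with adjusted p up to 0.131, 0.118 and 0.247. The 5 falls also included APEX2 and UNG. Of 11 readers of methylated CpG, 2 rose (ZBTB38 and MBD6) and 1 fell (MBD2) between 6WP and AM cells, beside 21.3% of all tested genes called. These calls were made in 13, 9 and 10 of 15 alternative fits, with adjusted p up to 0.164, 0.200 and 0.135. MBD2, a reader that brings in a repressive complex, was at 68.4 ± 0.86 CPM in WT cells, 101 ± 1.62 CPM in AM cells and 71.4 ± 4.58 CPM in 6WP cells and was the only reader called between AM and WT cells (0.56, adjusted p = 0.0130, called in 11 of 15 alternative fits).

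RNA was also counted for germline genes, which are usually kept silent by promoter methylation, and for genes often methylated in prostate cancer. Of 16 germline genes, 6 had 0 counts in every library, 11 were at or under the floor in every library and 3 could be tested, and the summed level of the 16 was 17.6 to 33.2 CPM. TDRD9 made up most of it, with 21.9 and 25.6 CPM in WT, 31.5 and 30.4 CPM in AM and 18.8 and 14.8 CPM in 6WP libraries, and fell by 0.88 on the log2 scale from AM to 6WP cells (adjusted p = 0.00998, called in 13 of 15 alternative fits). MAEL rose by 1.47 in the same comparison (adjusted p = 0.0187, called in 10 of 15), at 1.83 and 1.93 CPM in WT, 0.861 and 0.648 CPM in AM and 2.42 and 1.73 CPM in 6WP libraries. Of 17 genes often methylated in prostate cancer, 9 were tested. GSTP1 was not among them, with at most 0.276 CPM in any library. RASSF1 rose in 6WP cells, at 43.3 and 40.5 CPM against 14.7 and 19.1 CPM in WT and 20.4 and 20.6 CPM in AM libraries, by 1.31 on the log2 scale against WT cells (adjusted p = 0.00710) and by 1.03 against AM cells (adjusted p = 0.00546). Each call was made in 13 of 15 alternative fits, with adjusted p up to 0.153 against WT and 0.0711 against AM cells. AOX1 rose from 6.06 ± 0.71 CPM in WT to 19.0 ± 4.46 CPM in AM cells (1.65, adjusted p = 0.0128) and was at 22.6 ± 9.47 CPM in 6WP cells (1.89 against WT, adjusted p = 0.0242). These calls were made in 11 and 10 of 15 alternative fits, with adjusted p up to 0.130 and 0.279. MGMT, a repair gene, fell from 2.72 ± 0.50 to 1.24 ± 0.41 CPM from WT to AM cells and was at 2.71 ± 0.05 CPM in 6WP cells. Of these 9 genes, 2 rose and 0 fell between 6WP and WT cells, beside 1.63% and 1.37% of all tested genes. Between 6WP and AM cells 3 rose and 0 fell, beside 11.7% and 9.68%. Between AM and WT cells 1 rose and 1 fell, beside 7.74% and 9.93%. Methylation at these genes was not measured in these libraries, and a count for a symbol does not separate the transcripts of a gene.

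Markers of the cell line moved as well. Of the 10 prostate epithelial markers, 1 rose and 5 fell between AM and WT cells, beside 7.74% and 9.93% of all tested genes. Between 6WP and AM cells 3 rose and 1 fell, beside 11.7% and 9.68%. Between 6WP and WT cells 0 were called, beside 3.00%, and at that share a count of 0 is not a result about these markers. TMPRSS2, a serine protease of prostate epithelium, had 91.0 and 95.7 CPM in WT, 24.5 and 32.4 CPM in AM and 42.0 and 116 CPM in 6WP libraries. It was 1 of the 5 that fell from WT to AM cells. KLK2 went the other way, as the 1 that rose from WT to AM cells and the 1 that fell from AM to 6WP cells. It had 39.6 and 38.0 CPM in WT, 61.8 and 74.2 CPM in AM and 47.5 and 48.9 CPM in 6WP libraries. The summed level of the 10 markers was 2982 and 3137 CPM in WT, 1934 and 2286 CPM in AM and 2468 and 3455 CPM in 6WP libraries. The part of these changes in the results for the 9 enzymes was not tested.

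Some tested genes followed a member almost exactly over the 6 libraries, by Pearson's r of log2 CPM among 9910 genes with a mean of at least 3 log2 CPM. The libraries form 3 groups, so r describes mainly the order of the groups and of the 6WP libraries. Nearest to DNMT1 was TMA7, and GSTM4 (0.999) was also among the nearest. Nearest to UHRF1 were NUP93, PPIB and HYOU1 (each 0.999). HYOU1 encodes a chaperone of the endoplasmic reticulum. Nearest to DNMT3A were EEF2 (0.999), the translation elongation factor, MAPT (0.997) and TMEFF2 (0.995), and nearest to TET2 were HECA, APBB1 and KREMEN1 (each 0.994). For TDG these were TDP1 (0.997), which repairs DNA ends, RHNO1 and PDSS1, and for MBD4 RBBP8 (0.997), GOLGA1 and HPGD. For DNMT3B they were NSL1, H2AFZ and TRA2B, for TET1 ZNF592, JAK2 and ZNF696, and for TET3 SOCS6, BPTF and PKP4.

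The counts of some members may include reads of a neighbour. In GENCODE, exons of DNMT1 overlap those of S1PR2 on the same strand, and exons of TET3 and TDG overlap an unnamed gene on the same strand. Exons of MBD4 overlap those of IFT122 on the opposite strand, and the strand setting of the counting is not given in the sources used here. GENCODE also lists pseudogenes of TDG, DNMT3A and TET1, and how reads shared with such copies were counted is likewise not given.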

How the data were processed

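RNA from 6 libraries of 22Rv1 cells (WT, AM and 6WP, 2 each) was sequenced as single end reads from a stranded kit. Per the labels, the authors aligned reads to hg38 with STAR 2.5.3a, and the notes also name StringTie 1.3.3, featureCounts 1.5.3, edgeR 3.22.3 and R 3.5.0. The annotation and strand setting of the counting are not given in the sources used here. The deposited values are whole, unnormalized counts for each symbol, and 0 columns were left out.

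With R 4.3.3 and edgeR 4.0.16, 14672 of 29804 symbols were kept (filterByExpr), TMM factors were computed, and edgeR's quasi-likelihood model, with the group as its only term, was fitted to the 6 libraries together (common dispersion 0.0173). The 3 comparisons were tested two-sided, with Benjamini-Hochberg adjustment over all tested genes and a threshold of 0.05. Standard errors were derived from the F statistic of each gene, and 95% intervals from the same fit, which was tested on simulated data. The alternatives were other normalizations, other filters, DESeq2 1.42.0, the likelihood ratio test, the 2 compared groups alone, a replicate block, and leaving out each library. Levels per kb used GENCODE canonical transcripts, and the length of all exons was added after seeing the data.

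The 9 genes and all lists were chosen with earlier results of these data known. All members were named. From each other list, at most the 5 largest changes among called genes of a comparison were named, plus DNMT3L, UHRF2, HELLS, MAT2A, PCNA and MKI67, and the 3 genes most like each member. AHCY, GSTP1, TMPRSS2 and KLK2 were named after their values were seen. Some genes that this rule would name are not reported here. The methylation array and proteomics of the study are not analysed here.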

Additional observations from a re-analysis of the deposited data

How the results depend on the processing

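Over 15 alternatives in 3 comparisons, 354 of the 405 members' log2 fold changes kept their side of the threshold, 23 gained and 28 lost a call. The sign changed in 17, of which 16 were in 6WP against WT, and none of the 17 was called in either fit. Members called between 6WP and AM cells went from 4 to 1 with only the 2 groups compared, and lay between 0 and 9 without a library. Between AM and WT cells they went from 3 to 5 with DESeq2, 5 with the likelihood ratio test and 6 with only the 2 groups, and lay between 0 and 6 without a library. Between 6WP and WT cells they were 0, and 0 to 3 without a library. Of all genes, 440 were called between 6WP and WT cells, against 894 without the filter, 1124 with DESeq2, 1492 with the likelihood ratio test, 96 with only the 2 groups, and 0 to 3870 without a library. Between 6WP and AM cells 3131 were called, 1309 with only the 2 groups and 116 to 6807 without a library, and between AM and WT cells 2593, 6620 with only the 2 groups and 67 to 6654 without a library. Without 6WP replicate 1, MKI67 turned from 0.11 to -0.51 against WT cells (adjusted p = 0.00593), and without 6WP replicate 2 it was 0.51 (adjusted p = 0.00309).

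With a replicate block, 0, 4 and 3 members and 393, 3069 and 2485 genes were called between 6WP and WT, 6WP and AM, and AM and WT cells. The deviations of same-numbered libraries had correlations of 0.0873 (WT and 6WP), 0.0395 (WT and AM) and -0.0206 (AM and 6WP). In the labels these libraries share only a number, and the correlations cannot exclude a shared harvest or batch. With 2 libraries a group, a difference within the 6WP spread was not detectable, and this spread was widest for DNMT1, TET1, DNMT3B and TET3.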
